A study of Mus musculus with 5 samples.

Results

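This account follows 233 short stretches of mouse chromatin that were recovered with a BCLAF1 antibody from native LSK cells and from Bclaf1 knockout stem cells, but from neither library of wild-type stem cells. They are the native LSK peaks on chromosomes 1 to 19 and X that shared at least 1 bp with a peak of the HSC KO list and with no peak of either HSC WT list. A crowded window of chromosome 9, from 3000000 to 3040000, was left out. They made up 36.0% of the 648 native LSK peaks on these chromosomes, in a series of 7045 peaks over 5 lists. Of the other native peaks, 301 also lay on an HSC WT peak, all of them on KO peaks as well, and 114 lay on neither a KO nor an HSC WT peak. The regions were chosen by their calls in native LSK, KO and HSC WT, so their enrichments and reads in these libraries are a description and no test was run on them.

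Each library came from 50000 sorted cells and 1 antibody against BCLAF1. The blood stem cells (haematopoietic stem cells, HSCs) were sorted from E17.5 fetal liver, pooled from 24 to 26 embryos, and gave 2 WT libraries and 1 KO library. The labels do not give the allele, the deleted part or the way the knockout was made. LSK cells are blood progenitors that lack lineage markers and carry Sca1 and Kit, and the WT LSK cells were profiled native in 1 library and after 0.1% formaldehyde for 2 min in another. By the protocol they were adult bone marrow cells, with 2 to 3 mice in a pool, but the label for tissue reads E17.5 fetal liver, so a difference between LSK and HSC libraries cannot be told apart from one of age and tissue. Fixation is not recorded here for the HSC libraries, so a difference in fixation cannot be told apart either. Peak lists hold no expression values, so neither the cell types nor the knockout could be checked against their genes. Whether the 2 WT libraries came from separate pools is not stated. A library for an unspecific antibody was not used here.

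BCLAF1 is a nuclear protein rich in arginine and serine, linked to transcription, splicing of messenger RNA and the response to DNA damage. In CUT&RUN an antibody brings a nuclease to its target inside permeable cells, and the small DNA fragments that are cut free are sequenced. The method also releases DNA where the nuclease reaches chromatin without the target. Profiling a knockout with the same antibody is a common control for that part of the signal. Whether the protein or the stretch the antibody binds was lost in these KO cells was not tested. The sequence of the regions was not analysed here, so no motif, base composition or repeat is described.

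Each peak carries a fold enrichment, the ratio of reads to local background at its summit with 1 added to both, as the authors' caller gave it. These values are not scaled between libraries. The number of reads over the summit was worked back from the enrichment and its p-value. The most common background of a list, in reads per position, served as its depth. It was 0.327 in native LSK and 0.339 in HSC WT 1, lower in HSC WT 2 (0.117) and fixed LSK cells (0.022), and 1.147 in the KO library. Native LSK and HSC WT 1 thus had nearly the same background, the background of HSC WT 2 was 0.345 times that of HSC WT 1, and KO had the highest.

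The 233 regions were narrow and mostly modest in native LSK cells. Their enrichment there ran from 3.65 to 48.8 with a median of 8.29, resting on 6 to 83 reads with a median of 11. Only 39 regions had 20 reads or more, and 60 had between 6 and 8. The 301 native peaks shared with HSC WT were stronger, with a median enrichment of 15.7 and a median of 32 reads, and the 114 without KO or HSC WT were weaker, with 6.03 and 7 reads. The widths followed the same order, with medians of 86 bp for the 233 regions, 120 bp for the shared peaks and 80 bp for those without KO.

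In the KO list the same regions stood high. Their KO enrichment ran from 3.83 to 76.8 with a median of 16.3, against 7.45 over all 3890 KO peaks on these chromosomes, and their KO reads from 10 to 273 with a median of 39. By enrichment their median rank in the KO list was 463, and 102 of the 233 (43.8%) were in its strongest 10%. Shared peaks had a KO median of 26.0. The KO enrichment exceeded the native one in 209 of the 233 regions. Without the added 1, which lowers enrichments more in a shallow library, the ratio of reads to local background was higher in native LSK than in KO in 139 regions, with medians of 30.6 and 29.7.

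**Figure D1:**
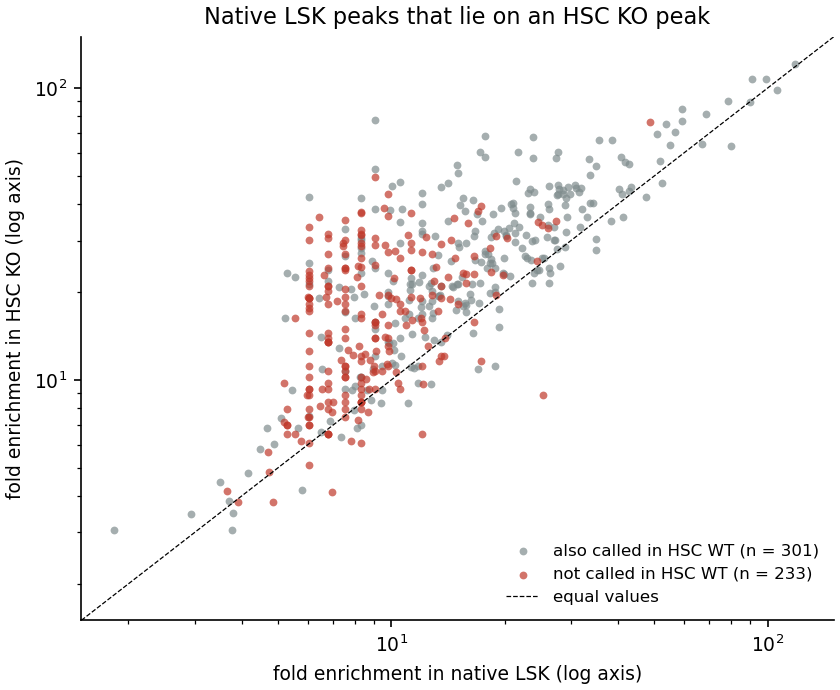
Fold enrichment in native LSK cells (horizontal, log axis) against that in HSC KO (vertical, log axis) for native peaks on a KO peak; each point is 1 peak and the dashed line marks equal values. The 233 regions not called in HSC WT (red) have medians of 8.29 and 16.3 and lie mostly above the line, and the 301 also called in HSC WT (grey) reach further up on both axes. The values are not scaled between libraries, and without the added 1 native LSK was the higher in 139 of the 233.

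The strongest region in both lists lay inside Mamdc2, which encodes a secreted proteoglycan with MAM domains, on chromosome 19 from 23357428 to 23357501. Its enrichment was 48.8 in native LSK, from 83 reads, and 76.8 in KO, from 273 reads. It was far above the next region in each list and had no HSC WT peak within 3338450 bp.

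Next in native LSK came a region inside Tle7, of the TLE family of corepressors, on chromosome 8 from 110106573 to 110106692, with 27.5 in native and 35.1 in KO. A region inside Cntnap2, which encodes a neuronal adhesion protein, lay on chromosome 6 from 46308310 to 46308427 and had 26.1 and 33.2. On chromosome 8 from 71433091 to 71433169, 22362 bp from the nuclease gene Ankle1, a region had 25.3 in native but only 8.85 in KO, from 36 and 18 reads. Of the 10 strongest native regions it was the only one with a lower enrichment in KO than in native LSK. Without the added 1, the ratio of reads to local background was lower in KO at all 10. At Mamdc2 that ratio was 115 in native and 106 in KO, and at the region near Ankle1 77.8 and 15.7. These 10 were ranked by native enrichment, which leans the comparison toward native LSK. Among the 10 highest by KO enrichment the ratio was higher in KO at all but Mamdc2.

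Tekt3, which encodes a tektin of sperm flagella, held a region on chromosome 11 from 63083366 to 63083475, with 25.1 in native and 34.0 in KO. A region on chromosome 5 from 28118953 to 28119116, 40290 bp from the sterol regulator gene Insig1, had 24.6 and 34.8. One on chromosome 15 from 71737836 to 71737988, 9401 bp from Fam135b, had 24.3 and 25.6. The remaining 3 of these 10 were weaker in native LSK. They lay inside Laptm4a, a lysosomal membrane protein gene, with 20.3 in native and 30.6 in KO, 1056737 bp from Gm15501 on chromosome 7 with 19.8 and 22.8, and inside the potassium channel gene Kcnh7 with 19.01 and 19.57.

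Ordered by KO enrichment, the regions after Mamdc2 were not the strongest native ones. A region on chromosome 1 from 132796061 to 132796168, 54212 bp from the neurofascin gene Nfasc, had 49.7 in KO, from 119 reads, and 9.04 in native LSK, from 11. One on chromosome 13 from 64939864 to 64939962, 16668 bp from Spata31, had 43.3 in KO and 9.79 in native. One 18704 bp from the kinectin gene Ktn1, on chromosome 14 from 47629465 to 47629569, had 39.3 and 17.3. The other 6 had KO enrichments between 36.5 and 38.8. They lay 36294 bp from Cachd1, 1006 bp from Ubtfl1, 644299 bp from the sorting nexin gene Snx16 and 247141 bp from the phosphatase gene Ubash3b, and inside the zinc finger gene Zfp710 and the sodium leak channel gene Nalcn. Their native enrichments were 9.55, 17.0, 8.29, 11.3, 8.29 and 9.79 in that order. Beside Mamdc2, none of the 10 highest regions in KO was among the 10 highest in native LSK.

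Genes were then used to place the regions. Protein-coding genes held 80 of the 233 (34.3%, exact 95% binomial interval 28.3 to 40.8), against 32.9% of all native peaks. The share was 28.9% (23.8 to 34.4) of the shared peaks and 40.4% (31.3 to 49.9) of those without KO. The 3 intervals overlapped. Intervals count neighbouring peaks as independent and cover counting error only. The 80 regions lay in 77 genes. The genes around them had a median length of 191963 bp (exact 95% interval 117791 to 257594), against 155035 bp (122254 to 199130) for all native peaks inside genes and 122374 bp (95749 to 193581) for shared peaks, with overlapping intervals. The reference used here gives no exons, so exon, intron or UTR is not stated.

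After Mamdc2, Tle7, Cntnap2, Tekt3, Laptm4a and Kcnh7, the strongest regions inside genes lay in Dgkb, which encodes a diacylglycerol kinase, with 18.4 in native and 23.5 in KO. Rsrc1, which like BCLAF1 encodes a protein rich in arginine and serine that is linked to splicing, held a region on chromosome 3 from 67073658 to 67073770 with 18.3 in native, from 25 reads, and 28.3 in KO, from 63. Btaf1, an ATPase that acts on the TATA-binding protein, had 17.3 and 11.6, and Pbx4, a homeodomain factor, had 16.01 and 34.46. Gm40862 held 2 regions, 1 of them with a fixed LSK peak, and Dock2, an activator of Rac in blood cells, held 3 on chromosome 11. Those from 34681841 to 34682026 and from 34682127 to 34682199 shared 1 KO peak of enrichment 12.6 and had 9.85 and 9.12 in native LSK. The last began at 34544852 and had 5.20 in native and 9.78 in KO. Both genes were singled out after their values were seen.

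Within 1 kb of the start of a protein-coding gene, or of either boundary where the strand was not known, there were 4 of 233 (1.72%, exact 95% interval 0.470 to 4.34), against 2.47% of all native peaks and 3.65% (1.84 to 6.44) of the shared peaks. Within 10 kb there were 40 (17.2%, 12.6 to 22.6), against 15.0% (11.1 to 19.5) of the shared peaks. These intervals overlap as well.

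Of these 4 only the region at Hbq1a was placed against a known start, and the other distances are to a gene boundary that may be the start or the end. The closest lay 86 bp from a boundary of Cand2, a regulator of cullin ligases known from muscle, on chromosome 6 from 115774358 to 115774470, with 8.29 in native and 32.6 in KO. Beside Ccdc162, 358 bp from a boundary, a region on chromosome 10 from 41538402 to 41538485 had 7.53 and 7.92. In Lhx5, a LIM homeobox gene of the nervous system, a region 637 bp from a boundary had 7.53 and 8.85. The region at Hbq1a lay on chromosome 11 from 32299662 to 32299748, 320 bp from the start of Hbq1a, a theta globin gene of the alpha globin cluster, with 6.78 in native, from 8 reads, and 13.5 in KO, from 28. It was 2351 bp from the alpha globin gene Hba-a2.

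**Figure D2:**
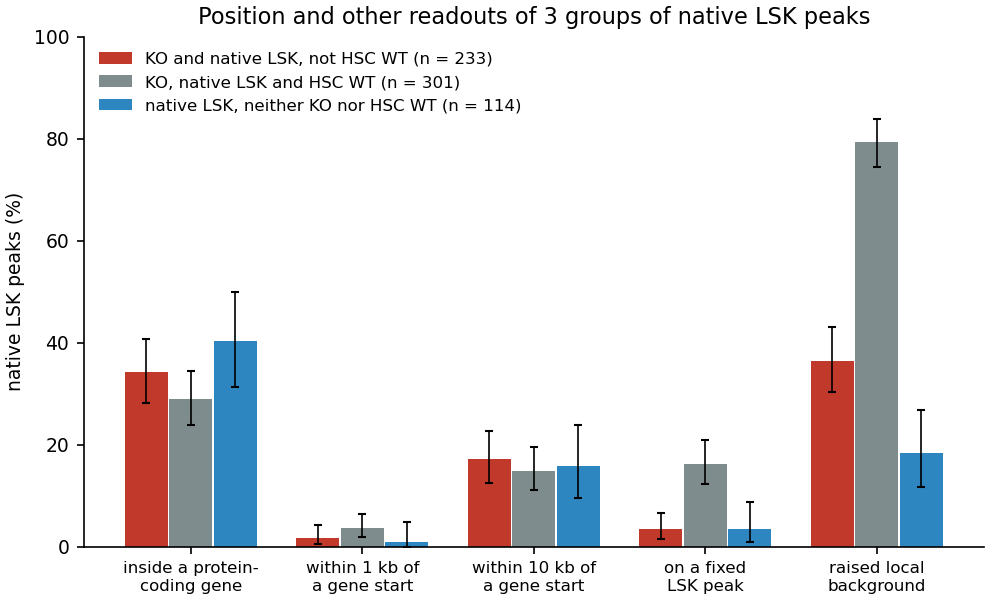
Shares of native LSK peaks (vertical axis, %) by position and other readouts, for the 233 regions (red), the 301 native peaks also on HSC WT peaks (grey) and the 114 on neither KO nor HSC WT peaks (blue); error bars are exact 95% binomial intervals, and a gene start means either boundary where the strand is not known. The bars for genes and gene starts overlap within their intervals, while 3.43% of the 233 regions and 16.3% of the shared peaks lay on a fixed LSK peak and 36.5% and 79.4% had a raised local background.

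Over all protein-coding genes, 124 of 21900 (0.566%) had one of the regions inside or within 10 kb. Of 356 genes of blood cell identity, of splicing, of liver and of stress pathways 3 did (0.843%), a share close to that over all genes. With chemosensory receptors added, 13 gene lists in all, this held for 8 of 1821 genes (0.439%). Of the 35 HSC identity genes 1 did: Erg, a transcription factor of stem cells, had a weak region inside it on chromosome 16 from 95504008 to 95504086, with 6.03 in native, from 7 reads, and 5.12 in KO, from 10. Of 29 matched p53 and apoptosis genes 1 did: Gadd45b, a stress-induced gene, lay 5547 bp from a region on chromosome 10 from 80924455 to 80924543, with 16.6 in native, from 21 reads, and 26.6 in KO, from 56. Of 23 erythroid genes 1 did, Hba-a2, whose region is the one at Hbq1a.

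Chemosensory receptor genes, of which 1465 matched, gave the other 5: Olfr291, Olfr366, Olfr679, Vmn1r87 and Vmn2r102, with native enrichments between 5.27 and 10.1. The region at Olfr291 had the highest of these, and a KO enrichment of 22.4. The interferon response, heat shock and integrated stress, NF-kB and inflammation, DNA damage, splicing, hepatocyte, myeloid, lymphoid and megakaryocyte lists had 0 genes at one of the regions. Each of these lists matched 14 to 46 genes, with 0 or 1 of them at any native peak. At the share over all genes, 0.566%, a count of 0 in lists this small carries little information. Bclaf1 and Thrap3, its paralog, are in the splicing list.

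The fixed LSK list was not used to choose the regions. It held a peak at 8 of the 233 (3.43%, exact 95% interval 1.49 to 6.65), against 9.41% of all native peaks, 16.3% (12.3 to 20.9) of the shared peaks and 3.51% (0.964 to 8.74) of those without KO. The intervals of the 233 regions and of the shared peaks did not overlap. The shared peaks had more native reads, and the part of read number in this gap was not tested. At the background of the fixed library the native reads of the regions scaled to a median of 0.740 and to at most 5.58, and 1 region, Mamdc2, reached the 3 reads of the weakest fixed peak. It had no fixed peak.

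The 8 regions with a fixed peak were of middling strength in native LSK, from 5.999 to 9.794. Their native reads scaled to between 0.538 and 1.14 in the fixed library, where 3 to 10 reads were recovered. The most fixed reads, 10, were at chromosome 6 from 3201198 to 3201272, near the assembled start of the chromosome, with enrichments of 8.97 in native, 11.2 in KO and 8.41 in fixed cells. A region on chromosome 14 from 104715824 to 104715908, 193111 bp from Obi1, had 9 fixed reads against 8 native ones, with 6.78, 14.4 and 9.19 in the same order. In Jarid2, which encodes a partner of the Polycomb complex PRC2, a region on chromosome 13 from 44869911 to 44869993 had 8.52, 12.3 and 5.52. The others, with 3 to 5 fixed reads, lay inside Gm40862 and outside genes. Of these, the ones near Spata31 and Cachd1 are given above, and the other two lay 40530 bp from Csmd3 and 616586 bp from Igfbp7.

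The depth of the HSC WT libraries was set against what the regions would give there. KO reads were multiplied by the ratio of backgrounds (0.296 for HSC WT 1, 0.102 for HSC WT 2) and compared with the weakest peak that each WT library called, of 6 and 4 reads. In HSC WT 1 the scaled number reached 6 in 188 of the 233 regions (80.7%), with a median of 11.5. In HSC WT 2 it reached 4 in 116 (49.8%), with a median of 3.98. All 116 also reached the lowest number in HSC WT 1, 72 more did so in HSC WT 1 alone, and 45 (19.3%) reached it in neither. The HSC WT 2 median lay close to 4, so that count depends on the scaling. Scaled instead by the median ratio of reads at KO peaks called in each WT library, 193 regions reached the lowest number in HSC WT 1 and 153 in HSC WT 2. From native reads 105 reached it in HSC WT 2. In HSC WT 1 all 233 did, which could not have come out otherwise: the weakest native peak had 6 reads, and 1.04 times that number is above the lowest of HSC WT 1. By both sources 69 regions (29.6%) reached the lowest called number in both libraries, among regions chosen for calls in KO and native LSK. For 45 regions the KO signal at these depths would thus fall below the weakest peak called in either WT library. For 188 it would not in HSC WT 1. At 2 times the lowest called numbers, 12 and 8 reads, 112 regions reached the mark in HSC WT 1 and 20 in HSC WT 2. Scaled numbers are expectations, so an actual count could fall below a mark that they only just reach. The local background of each region was not taken into account.

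**Figure D3:**
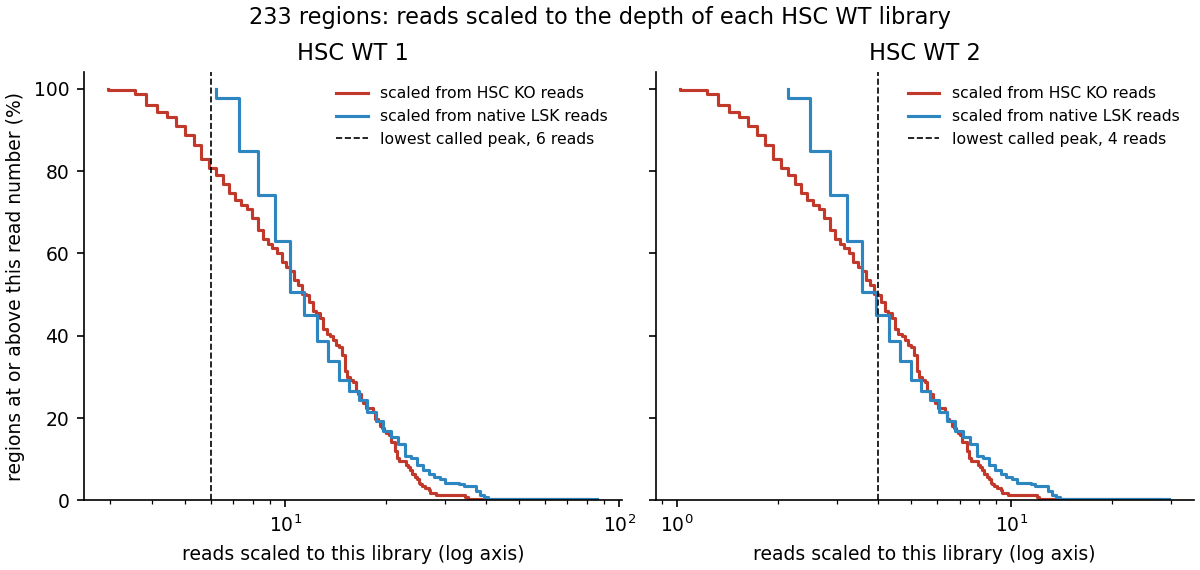
Share of the 233 regions (vertical axis, %) whose reads, scaled to the background of HSC WT 1 (left) or HSC WT 2 (right), are at or above the number on the horizontal log axis; red is scaled from HSC KO and blue from native LSK reads, and the dashed line marks the weakest called peak, 6 and 4 reads. At that line the red curves stand at 80.7% and 49.8%, so more of the regions fall short in HSC WT 2 than in HSC WT 1.

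At the Mamdc2 region the KO reads came to 80.7 at the depth of HSC WT 1 and 27.8 at that of HSC WT 2, the highest of all 233, and the native reads to 86.0 and 29.7. At the Nfasc region the KO reads scaled to 35.2 and 12.1, at Tle7 to 23.9 and 8.26 and at Cand2 to 21.3 and 7.34. At Hbq1a they scaled to 8.28 and 2.86, below the lowest number of HSC WT 2. At Erg they came to 2.96 and 1.02, below both.

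Scaling was checked on native peaks on KO that were called in HSC WT. In HSC WT 1, 267 such peaks had a median of 0.954 times the reads scaled from KO, with quartiles of 0.570 and 1.32. In HSC WT 2, 229 had 1.26 times, with quartiles of 0.891 and 1.73. Against reads scaled from native LSK the medians were 0.838 (quartiles 0.600 and 1.04) and 1.07 (quartiles 0.799 and 1.40). Peaks too weak to be called are missing from these ratios, which leans them upward. The 233 regions were themselves chosen for calls in KO and native LSK, which leans their reads upward as well. Reads below the threshold in HSC WT are not in the lists, so absence of a call does not show absence of signal.

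The 2 libraries of like depth were not alike in what they shared with KO. Their lists also differed in size, with 648 peaks on these chromosomes in native LSK and 362 in HSC WT 1. HSC WT 2, with a lower background, had 452. The part of list size in the sharing was not tested. Native LSK had a peak at 513 of the 3890 KO peaks (13.2%), HSC WT 1 at 305 (7.84%) and HSC WT 2 at 259 (6.66%). KO peaks called in native LSK and not in HSC WT 1 numbered 260, and those called in HSC WT 1 and not in native LSK 52. In percentage points the gap was widest at 61 to 120 KO reads, and as a ratio at 16 to 30. Of 1395 KO peaks with 16 to 30 reads, 5.95% (exact 95% interval 4.77 to 7.32) were called in native LSK, 1.43% (0.878 to 2.21) in HSC WT 1 and 1.29% in HSC WT 2. Of 400 KO peaks with 31 to 60 reads, 39.3% (exact 95% interval 34.4 to 44.2) were called in native LSK, 18.5% (14.8 to 22.7) in HSC WT 1 and 13.8% (10.53 to 17.52) in HSC WT 2. Of 206 with 61 to 120 reads the shares were 78.6%, 52.4% and 42.7%. Among 96 with over 120 reads they were 97.9%, 93.8% and 88.5%, with overlapping intervals for native LSK and HSC WT 1. These shares describe the contrast that chose the regions and carry no test.

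**Figure D4:**
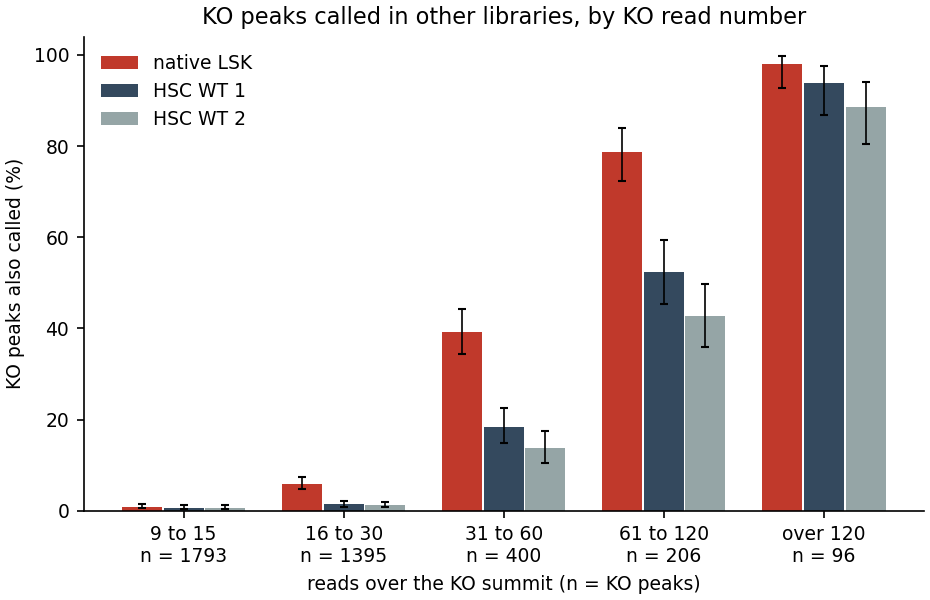
Share of KO peaks (vertical axis, %) that were also called in native LSK (red), HSC WT 1 (dark) and HSC WT 2 (light), by the number of reads over the KO summit (horizontal axis, with the number of KO peaks); error bars are exact 95% binomial intervals. Native LSK lies above both HSC WT libraries at 31 to 60 and 61 to 120 reads, at 39.3% against 18.5% and 13.8% in the first of these.

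By each library's own reads, the shares called in the other library were unequal. They rest on the calls that chose the regions and carry no test, and the part of list size was not tested. Over all reads, 267 of 534 native peaks on KO (50%) were called in HSC WT 1. Of 320 HSC WT 1 peaks on KO, 265 (82.8%) were called in native LSK. Of native peaks on KO with 6 to 8 native reads, 6 of 68 (8.82%, exact 95% interval 3.31 to 18.2) were called in HSC WT 1. Of HSC WT 1 peaks on KO with 6 to 8 reads there, 23 of 32 (71.9%, 53.3 to 86.3) were called in native LSK. At 20 to 39 reads the shares were 64.7% of 136 native and 85.9% of 85 HSC WT 1 peaks. The regions called in neither WT library thinned out as native reads rose: they were 88.2% of native peaks on KO with 6 to 8 reads, 73.5% with 9 to 12, 50.5% with 13 to 19, 27.9% with 20 to 39 and 0.862% with 40 or more. That last share is 1 peak of 116, at Mamdc2.

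The peaks in native LSK and KO sat on nearly the same bases. Their summits lay a median of 14 bp apart (exact 95% interval of the median 11 to 17), against 8 bp (7 to 10) for shared peaks, and 98 of the 233 (42.1%) were within 10 bp. The local background in native LSK was more than 5% above that of the genome at 85 regions (36.5%, 30.3 to 43.0), against 79.4% (74.4 to 83.8) of the shared peaks and 18.4% (11.8 to 26.8) of those without KO. In KO 159 of the 233 lay at the genome background. Summit distance and background come from the libraries that chose the regions, so these differences are a description. Shared peaks had more reads, and the part of read number in them was not tested.

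Chromosome 12 held the most regions, 20, and chromosomes 8 and 6 held 18 and 17. Chromosome 12 had 12 shared peaks, chromosome 8 had 13 and chromosome 6 had 21. In that order they held 8.58%, 7.73% and 7.30% of the 233 regions, against 3.99%, 4.32% and 6.98% of the shared peaks. They also held 4, 11 and 15 of the native peaks without KO. These chromosomes were picked after their counts were seen. Within 10 kb of another of the 233 lay 16 regions (6.87%, 3.98 to 10.9), and 208 had no other native peak within 10 kb. The same shares were not taken for the other native peaks. In all, 10 regions shared their KO peak with another of the 233, so the regions rest on 228 distinct KO peaks. A group of 4 (chosen after their values were seen) crowded together on chromosome 10 between 3109572 and 3116830. These belong to 10 regions within the first 3.3 Mb of their chromosomes, on chromosomes 4, 6, 10, 11 and 17, whose assembled sequence starts close by. Such regions were 4.29% of the 233, close to the 4.32% of the shared peaks and 3.70% of all native peaks. All 10 lay within 3407 bp of an HSC WT peak, whereas the median distance over all 233 was 1508829 bp.

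At the limits of the rule, 15 of the 233 lay within 1 kb of an HSC WT peak without touching it, and 21 within 10 kb. The 3 nearest were the one on chromosome 6 from 3201198, 94 bp away and already described, and those on chromosomes 17 and 5. The nearest of all was on chromosome 17 from 13654967 to 13655082, 71 bp from one, with 14.1 in native LSK and 22.4 in KO. On chromosome 5 from 20979047 to 20979145 a region 7499 bp from Ptpn12, a phosphatase gene, lay 117 bp from one. The smallest overlap with a KO peak was 19 bp, on chromosome 12 from 62722704 to 62722810, with 5.27 in native and 6.99 in KO. The next were 23 bp, on chromosome 17 from 3082090 to 3082157, with 5.74 and 6.19, and 34 bp, inside Galntl6, with 5.56 and 6.52. Just outside, a native peak on chromosome 14 from 97654035 to 97654119 with 6.78 in native and 21.9 in KO shared 65 bp with an HSC WT 2 peak of 5 reads. One on chromosome 17 from 13589907 to 13589989, with 8.63 and 9.20, shared 66 bp with an HSC WT 1 peak of 21 reads. Another, inside Msi2, an RNA-binding regulator of stem cells, with 9.04 in native and 77.8 in KO, shared 68 bp with an HSC WT 1 peak of enrichment 15.7. The native peak nearest to KO without touching it lay 140 bp away, on chromosome 2 from 181931247 to 181931344, with 7.11 in native LSK. The next lay 1708 bp from a KO peak, on chromosome 10 from 103624383 to 103624477, with 5.31, and 4607 bp from one, inside Gm5591, with 7.59.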

How the data were processed

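The deposited files are 1 peak list per library. The aligner, caller, control and treatment of duplicates were not given in the sources used here. Build mm10 is named per the submitters' processing notes. The authors deposited a fold enrichment per peak (a ratio), −log10 p-values and −log10 q-values, and a score, the integer part of 10 times the −log10 q-value. From these, the whole number of reads and the local background at each summit were solved for (Poisson upper tail, pseudocount of 1 in the enrichment, relative tolerance 0.0001), which succeeded for 100% of peaks in every list. Peaks were not pooled between libraries.

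Gene positions came from NCBI RefSeq for GRCm38.p6, whose coordinates are those of mm10, and held 21900 protein-coding genes. The strand, and so the start, was known for 17492 of them. Of 361 symbols in 12 gene lists, counted with repeats, 356 distinct genes matched. A further list took all genes whose symbol starts with Olfr or Vmn. The regions, lists and naming rules were chosen with earlier results of these data known. Named are the 10 highest regions in native LSK, in KO and inside genes, those within 1 kb of a gene start, those on a fixed peak, list genes with a region inside or within 10 kb, and 3 cases at each limit of the rule. Regions on chromosome 18 were counted and not named. Since KO, native and fixed cells have 1 library each, no test across samples was made. Shares have exact (Clopper-Pearson) 95% binomial intervals and medians an exact interval from order statistics. Reads carry no molecular identifiers. The intervals treat peaks as independent and leave out variation between libraries, so they cover counting error only. On simulated lists 200 of 200 planted regions were found, and 1000 of 1000 simulated read numbers were recovered. Analyses used Python 3.11.15, numpy 2.4.6, pandas 2.3.3 and scipy 1.17.1.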

Additional observations from a re-analysis of the deposited data

How the results depend on the processing

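No paired analysis was possible because only HSC WT has more than 1 library and the groups share fewer than 2 replicate numbers. In 97 recomputed values, 87 stayed within the interval of the reported value or, for counts, within 1.5 times it. With the KO list held to the size of the native list, which removes weaker KO peaks, 146 regions were left, with median enrichments of 9.04 in native LSK and 22.4 in KO and 3 list genes. With a −log10 q-value of at least 5 the native median was 9.04. Within 5 kb of a gene start lay 9.44% of the regions, as a wider distance must give more. The share within 10 kb of another region was 3.67% when no HSC WT peak was allowed within 1 kb, and 0% by construction without crowded native peaks. Leaving out HSC WT 1 or HSC WT 2 from the rule gave 305 and 267 regions. Without HSC WT 1 the share within 10 kb of another region moved to 13.1%. The number whose reads reached the lowest called in HSC WT 2 moved to 178. Without HSC WT 2 these were 6.74% and 141, which counted as unchanged. HSC WT 2 and the fixed library had the lowest backgrounds, 0.117 and 0.022. How far depth limited what was called there was not tested.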
